A study of Arabidopsis thaliana with 6 samples.

Results

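The class V chitinase cluster is a row of 9 glycoside hydrolase 18 (GH18) genes on chromosome 4 of Arabidopsis thaliana, from AT4G19720 to AT4G19820, with ChiC (AT4G19810) near one end. Its members were taken by their gene codes from the 33602 gene models counted in every library. ChiC was singled out because its read count was higher after dexamethasone. Its neighbours were taken for their family and position. The difference between the groups is therefore given for these 9 genes as a description, without a p-value.

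Chitinases cut chitin, the N-acetylglucosamine polymer of fungal cell walls and insect cuticles, which plants do not make. Class V enzymes belong to GH18, whose catalytic site carries 2 aspartates and a glutamate in the order aspartate, any residue, aspartate, any residue, glutamate, with the glutamate acting as the acid. ChiC is a secreted enzyme that releases short chitin oligomers, and its transcript is known to respond to abscisic acid, jasmonate and salt in this species.

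Read pairs were counted in 6 libraries of polyA RNA from whole seedlings at Boyes stage 1.02. The series names the 3 libraries of each group biological replicates. All carried 35S::CUC2-GR, in which the viral 35S promoter, active in most tissues, drives the boundary transcription factor CUC2 joined to the part of the glucocorticoid receptor that binds the hormone, so that dexamethasone lets the fusion enter the nucleus. Seedlings of the Dex group (n = 3) spent 6 h in 10 mL of liquid medium to which 10 µL of dexamethasone had been added, at a concentration that is not stated. Seedlings of the no_Dex group (n = 3) had the same genotype and were untreated. No mock-treated sample or plant lacking the transgene is among the libraries, so a response to CUC2-GR and a response to the drug or to handling cannot be told apart. The labels say neither how many seedlings were pooled nor how many transgenic lines were used.

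Between 26161582 and 29481253 pairs were counted per library. The CUC2 count, which sums transgene and endogenous gene, averaged 867 ± 14.3 CPM, the pairs of a gene per 1e+06 pairs counted, in Dex and 849 ± 28.9 CPM in no_Dex (SD, n = 3 each). Dex replicate 1 stood apart, with log2 CPM correlations across genes of 0.988 and 0.987 with the other Dex libraries, against 0.994 between those. Markers of leaf and root tissue were present in all libraries. The 5 photosynthetic markers summed to 3943 to 6674 CPM in Dex, lowest in Dex replicate 1, and to 6981 to 7645 CPM in no_Dex. Of them 2, the near-identical LHCB1.1 and LHCB1.2, fell (edgeR adjusted p = 0.0233 and 0.0389), beside 8.40% of all tested genes. The other 3 were not called, with log2 fold changes, Dex minus no_Dex, between -0.60 and -0.01. The 5 root markers summed to 301.4 to 318.4 CPM in Dex and 323.8 to 358.1 CPM in no_Dex. Of them 1, EXPA7, fell (edgeR adjusted p = 0.0362). The other 4 were not called, with log2 fold changes between -0.45 and 0.02. With the replicate block 3 root markers fell, beside 2146 of 21344 tested genes. The calls of LHCB1.1, LHCB1.2 and EXPA7 were each lost without Dex replicate 2 or any 1 of the no_Dex replicates, with edgeR adjusted p between 0.0506 and 0.128. The part of these shifts in the values below was not tested, and in whole seedlings fewer cells of a type and less RNA per cell cannot be told apart.

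In the TAIR10.1 annotation the cluster spans 39.3 kb (chr4:10729966-10769303). Of its members 8 lie on the minus strand and 1, AT4G19760, on the plus strand, and 2 pseudogenes, AT4G19780 and AT4G19790, lie between AT4G19770 and AT4G19800. ChiC occupies chr4:10763206-10765795 on the minus strand, with 3 exons in the transcript nearest in length to the counted model. AT4G19800 lies 1101 bases to one side of it and AT4G19820 lies 1276 bases to the other.

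The members differ at the catalytic site itself. All 9 could be aligned there, and the 45 coding bases around it are shown because they differ in the codons of the acidic residues. Bases are the coding strand of TAIR10.1 from RefSeq, 5′ to 3′, and capitals mark the 5 codons aligned with the aspartate to glutamate signature of ChiC.
ChiC (chr4:10765319-10765363, minus): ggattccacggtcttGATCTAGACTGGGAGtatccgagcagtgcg
AT4G19800 (chr4:10761733-10761777, minus): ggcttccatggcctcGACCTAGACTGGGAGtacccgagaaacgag
AT4G19770 (chr4:10754071-10754115, minus): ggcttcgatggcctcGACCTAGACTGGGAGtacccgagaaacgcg
AT4G19760 (chr4:10750759-10750803, plus): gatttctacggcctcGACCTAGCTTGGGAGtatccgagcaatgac
AT4G19750 (chr4:10746729-10746773, minus): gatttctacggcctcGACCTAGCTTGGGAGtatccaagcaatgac
AT4G19740 (chr4:10740192-10740236, minus): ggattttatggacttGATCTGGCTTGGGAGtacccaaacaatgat
AT4G19730 (chr4:10734568-10734612, minus): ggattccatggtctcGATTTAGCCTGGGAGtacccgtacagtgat
AT4G19720 (chr4:10731294-10731338, minus): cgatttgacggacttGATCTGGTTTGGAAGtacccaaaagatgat
AT4G19820 (chr4:10768186-10768230, minus): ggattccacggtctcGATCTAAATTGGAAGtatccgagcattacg

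Only 3 of these 9 genes, ChiC, AT4G19800 and AT4G19770, hold all 3 acidic codons. AT4G19730, AT4G19740, AT4G19750 and AT4G19760 keep the first aspartate codon and the glutamate codon but have another codon in place of the second aspartate, which leaves 2 of 3. AT4G19720 and AT4G19820 keep 1 of 3. The signature starts at base 82 of the annotated coding sequence in both AT4G19740 and AT4G19770, against bases 343 to 406 in the other members, so the stretch before the site is shorter in those 2 models. This is a comparison of codons, and no enzyme activity was measured.

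Over whole coding sequences the 36 pairs of members shared 67.0% to 91.9% of aligned bases, with a median of 69.9%. The nearest relative of ChiC was its neighbour AT4G19820, at 81.1%, and its other pairs ran from 69.4% to 72.7%. AT4G19750 and AT4G19760 were closest, at 91.9%, followed by AT4G19770 and AT4G19800 at 86.8%. This bears on the counts, since reads that matched 2 places equally well were removed. Of 100-base windows, 3.54% of AT4G19750 and 3.46% of AT4G19760 occurred unchanged in the other, with a longest shared run of 134 bases. Of 50-base windows the shares were 9.71% and 9.52%. AT4G19770 and AT4G19800 shared 2.11% and 1.39% of their 50-base windows with each other, and their longest run was 64 bases. No 50-base window of ChiC occurred in a transcript of another gene, and its longest run in common with another member was 40 bases.

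**Figure D1:**
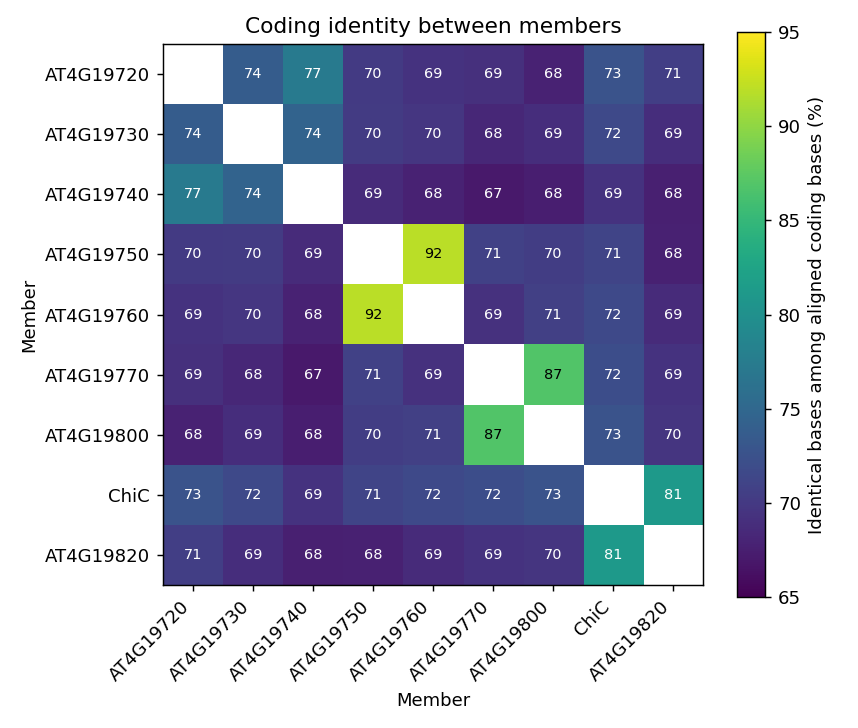
Percent of aligned coding bases that are identical, for each pair of the 9 members in chromosome order on both axes. AT4G19750 with AT4G19760 (91.9%), AT4G19770 with AT4G19800 (86.8%) and ChiC with AT4G19820 (81.1%) stand above the other pairs.

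In no_Dex seedlings the cluster was led by 2 genes. Levels between genes are given per length, as CPM per kb of gene model. ChiC stood at 16.2 ± 2.07 and AT4G19720 at 5.39 ± 0.698 (SD, n = 3), 3.00-fold apart with no overlap of their libraries. AT4G19820, next at 0.863 ± 0.0323, was 6.25-fold below AT4G19720, again with no overlap. From AT4G19820 down, each gene's libraries overlapped those of the next in the order, which was AT4G19750 (0.505 ± 0.456), AT4G19760 (0.293 ± 0.0765), AT4G19770 (0.279 ± 0.0952), AT4G19800 (0.146 ± 0.135), AT4G19730 (0.0453 ± 0.0784) and AT4G19740 (0.0246 ± 0.0213). Among the 27051 models with any pair, the no_Dex level of ChiC lay at percentile 68.1, that of AT4G19720 at 44.7, and those of the other members between 8.82 and 25.9.

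ChiC was higher in every Dex library than in any no_Dex library. It had 3650, 2454 and 2934 pairs in Dex replicates 1 to 3, against 722, 540 and 635 pairs in no_Dex replicates 1 to 3. Scaled to depth these were 126, 93.8 and 104 CPM in Dex, against 24.5, 18.9 and 22.4 CPM in no_Dex. The highest library of each group was replicate 1 and the lowest replicate 2. The values ran 69.1 to 92.6 CPM per kb in Dex and 13.95 to 18.05 CPM per kb in no_Dex. The log2 fold change, Dex minus no_Dex, was 2.28 (SE 0.13, n = 3 per group), or 4.87-fold. Within libraries of the same number the ratio was 5.13, 4.95 and 4.64. Of the 21344 genes tested, 26 had a larger log2 fold change. Without Dex replicate 1 it was 2.17.

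The libraries of AT4G19720, the other well counted member, overlapped between the groups. It had 154, 166 and 171 pairs in Dex, against 186, 197 and 151 pairs in no_Dex. Its log2 fold change was -0.08 (SE 0.13). It turned to 0.0019 without Dex replicate 1 and to 0.0094 without no_Dex replicate 2, so it has no settled direction.

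The libraries of AT4G19820, the nearest relative and next gene to ChiC, overlapped as well. It had 21, 24 and 26 pairs in Dex, against 27, 27 and 28 pairs in no_Dex. In CPM these were 0.723 to 0.921 in Dex and 0.916 to 0.987 in no_Dex, and the log2 fold change was -0.17 (SE 0.21). The ratio of Dex to no_Dex CPM, with pairs and depth summed over each group, was 0.896, with an exact 95% interval of 0.643 to 1.25 that covers counting error only.

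These 3 were the members that passed the filter on low counts. Of them 1, ChiC, passed an edgeR adjusted p of 0.05 as higher and none as lower, beside 14.4% of all tested genes called in either direction, 5.99% called higher and 8.40% called lower. The Dex and no_Dex libraries did not overlap in CPM for 1 member that was higher, ChiC, and 2 that were lower, AT4G19750 and AT4G19760. Among all tested genes 36.7% had no overlap, 19.8% as higher and 16.9% as lower. Because ChiC was chosen on this contrast, nothing is read from these counts. The other 6 members had too few pairs to pass the filter.

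AT4G19750 and AT4G19760, the 91.9% identical pair, had fewer pairs in Dex. AT4G19750 had 3, 0 and 1 pairs in Dex, against 32, 3 and 13 pairs in no_Dex. Its no_Dex libraries differed among themselves, with exact 95% Poisson intervals of 21.9 to 45.2 pairs in replicate 1 and 0.619 to 8.77 pairs in replicate 2. The lowest no_Dex library held as many pairs, 3, as the highest Dex library, so its groups were kept apart in CPM only by library depth (0.103 against 0.105 CPM).

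AT4G19760 had 3, 0 and 2 pairs in Dex, against 8, 8 and 12 pairs in no_Dex, with no overlap. Summed over both genes, the libraries held 6, 0 and 3 pairs in Dex, against 40, 11 and 25 pairs in no_Dex. The ratio of CPM summed in the same way was 0.0863 for AT4G19750 (4 against 48 pairs, exact 95% interval 0.0226 to 0.236) and 0.185 for AT4G19760 (5 against 28 pairs, 0.0557 to 0.485). These intervals again cover counting error only. The main filter left both genes untested. AT4G19760 was called lower by edgeR with no filter and with single reads. AT4G19750 was called lower without Dex replicate 1 or no_Dex replicate 2. It was tested but not called with no filter and without Dex replicate 2 or Dex replicate 3. In the fits that left out a library, AT4G19750 passed the filter only through no_Dex, where it is high. Nothing is therefore read from these calls.

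AT4G19770 and AT4G19800, which share the intact signature with ChiC, remained at a few pairs per library. AT4G19770 had 3, 8 and 10 pairs in Dex, against 9, 5 and 5 pairs in no_Dex. AT4G19800 had 9, 5 and 6 pairs in Dex, against 4, 1 and 10 pairs in no_Dex. The groups of both genes overlapped, and their ratios of summed CPM were 1.14 (0.586 to 2.25) and 1.38 (0.672 to 2.90). A difference was not detectable at this depth.

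The remaining members were at or near 0. AT4G19730 had 0, 0 and 1 pairs in Dex, against 4, 0 and 0 pairs in no_Dex, a ratio of 0.259 (0.00526 to 2.62). AT4G19740, one of the members with a short stretch before the site, had no pair in Dex, against 0, 1 and 1 pairs in no_Dex. A count of 0 has an exact 95% Poisson interval of 0 to 3.69 pairs. A floor of 3 pairs, used here, was 0.103 to 0.115 CPM in the Dex libraries, so no fold is given for AT4G19740. The pseudogenes AT4G19780 and AT4G19790 had a single pair each, both in Dex replicate 3.

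**Figure D2:**
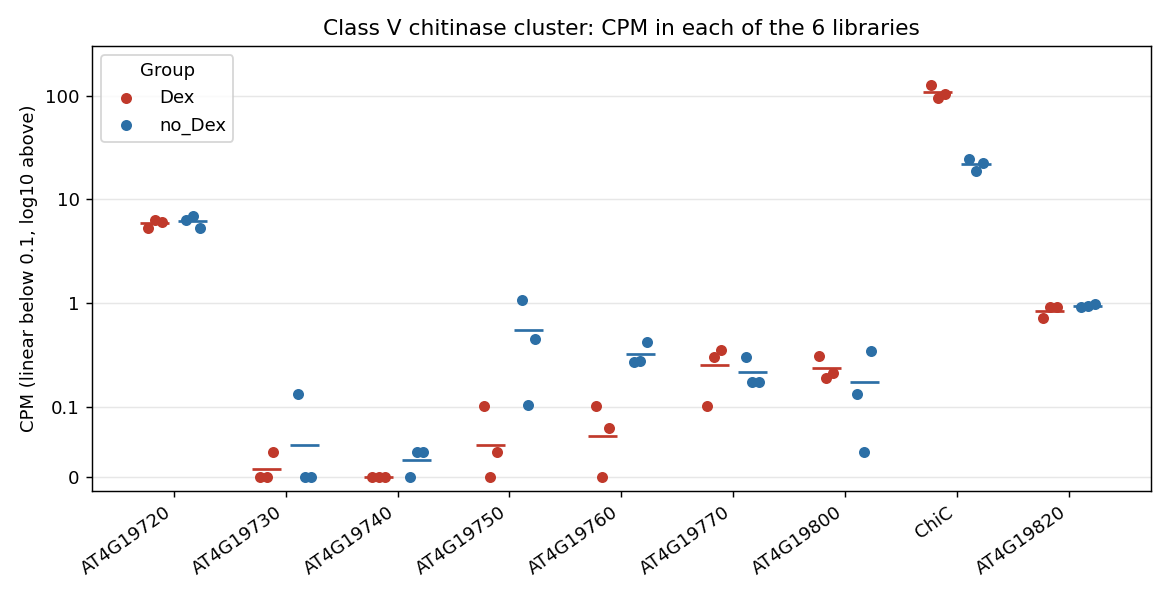
CPM of each member in every library (points) with the group mean (bars), Dex left of no_Dex, linear below 0.1 and log10 above. The 3 Dex points of ChiC, 93.8 to 126 CPM, lie above its 3 no_Dex points, 18.9 to 24.5 CPM, while those of AT4G19720 and AT4G19820 overlap.

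The share of ChiC in the cluster was read from the pairs. ChiC supplied 94.98%, 92.36% and 93.11% of the cluster's read pairs in Dex replicates 1 to 3, against 72.78%, 69.05% and 74.27% in no_Dex. This restates the difference by which ChiC was chosen and is given as a description. The other 8 members together held 193, 203 and 217 pairs in Dex, against 270, 242 and 220 pairs in no_Dex. In CPM they summed to 7.36 ± 0.623 in Dex and 8.46 ± 0.703 in no_Dex (SD, n = 3 each), and their libraries overlapped. The whole cluster summed to 115 ± 15.7 CPM in Dex and 30.4 ± 3.12 CPM in no_Dex.

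The stretch before ChiC is shown because ChiC is the member chosen for its difference between the groups. The 250 bases upstream of its annotated start (chr4:10765796-10766045, minus strand, TAIR10.1 from RefSeq) overlap no annotated gene. Capitals mark matches, on either strand, to CACG, a core that NAC factors bind, to ACGTG, the core of abscisic acid response elements, and to TTGAC, the core of the W box that WRKY factors bind.
ChiC upstream: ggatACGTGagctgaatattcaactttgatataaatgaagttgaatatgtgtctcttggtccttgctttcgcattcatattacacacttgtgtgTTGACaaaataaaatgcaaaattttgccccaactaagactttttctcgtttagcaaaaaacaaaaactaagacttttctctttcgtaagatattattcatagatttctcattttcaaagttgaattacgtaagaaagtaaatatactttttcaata
The window holds 1 ACGTG, whose last 4 bases are the reverse complement of CACG, so these 2 matches overlap, and 1 TTGAC. Such windows with CACG made up 45.6% of 27443 protein-coding genes, those with TTGAC 44.9% and those with ACGTG 22.9%. In the other members' windows ACGTG did not occur, CACG occurred before AT4G19750, and TTGAC occurred before AT4G19720 and AT4G19770. The ACGTG of ChiC begins 246 bases before its annotated start, at the far edge of the 250-base window. Its presence in ChiC alone therefore depends on the window length. A match is a string of letters and not a binding site, and 4 of the models (AT4G19730, AT4G19750, AT4G19760 and AT4G19800) start at their coding sequence, so their windows do not end at a transcription start. The AT4G19770 model is short before the signature, so its window may cover bases that are coding in longer members.

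Around the cluster, values were read for 5 genes on each side, and 1 of the 9 that were tested was called, beside 14.4% of all tested genes. AT4G19700, annotated as RING and also known as BOI, a ubiquitin ligase that restrains cell death, rose to 26.7 ± 1.94 CPM in Dex, against 16.5 ± 1.19 CPM in no_Dex (log2 fold change 0.68, SE 0.08; edgeR adjusted p = 0.00136). Of the other 9 flanking genes, 8 were tested and not called, and 1, PP2-A2, was below the filter.

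Among chitinases as a family, ChiC had a higher rank in Dex than in no_Dex. This restates the difference by which ChiC was chosen and is given as a description. Ranked by level per length among 24 chitinase genes, ChiC had rank 3 in Dex, at 79.4 CPM per kb, and rank 9 in no_Dex, at 16.2 CPM per kb. The gene at rank 2 in Dex, AT2G43620, was above ChiC in Dex replicate 1 and below it in the other Dex libraries. CTL1, a chitinase-like protein needed for cellulose deposition, had rank 1 in both, at 565 ± 23.2 CPM per kb in Dex and 576 ± 25.9 CPM per kb in no_Dex. Of the 15 chitinases outside the cluster, which are GH19 enzymes and the class III gene CHIA, 14 were tested, 2 rose and 1 fell. Their median log2 fold change was 0.01, beside 0.01 for all tested genes, and the share called was 21.4%, beside 14.4% of all tested genes.

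The 2 that rose were AT3G47540 and AT1G02360. AT3G47540, annotated by its code, had 10.0 ± 0.313 CPM in Dex and 6.31 ± 0.216 CPM in no_Dex (log2 fold change 0.65, SE 0.08; edgeR adjusted p = 0.0021). AT1G02360 had 41.2 ± 0.876 CPM in Dex and 28.3 ± 0.794 CPM in no_Dex (0.53, SE 0.06; edgeR adjusted p = 0.00100). CHIA, the class III GH18 chitinase, fell to 2.59 ± 0.226 CPM in Dex, against 4.07 ± 0.435 CPM in no_Dex (-0.66, SE 0.14; edgeR adjusted p = 0.0186). Its call was lost without Dex replicate 2, no_Dex replicate 2 or no_Dex replicate 3 (edgeR adjusted p = 0.0670, 0.0809 and 0.0679).

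The number of these chitinases called lower was 4 without Dex replicate 1, 2 without Dex replicate 3, and 0 without Dex replicate 2, no_Dex replicate 2 or no_Dex replicate 3. Another row of chitinases lies on chromosome 2, from AT2G43570 to AT2G43620. It had 5 tested members of 6, and none was called by edgeR, beside 14.4% of all tested genes. Its member AT2G43620 was at 228, 41.3 and 38.4 CPM in Dex and 68.7, 86.6 and 55.5 CPM in no_Dex, so that Dex replicate 1 stood far above the rest.

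**Figure D3:**
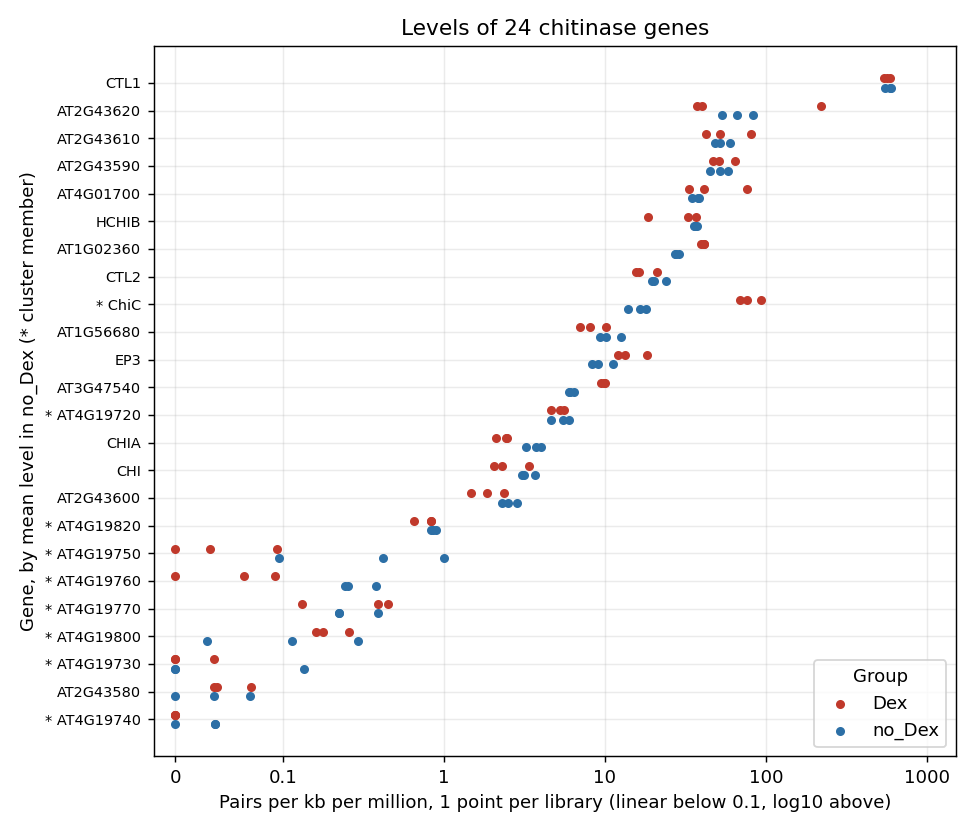
Level of 24 chitinase genes in CPM per kb (linear below 0.1, log10 above), with 1 point per library and Dex above no_Dex, ordered by the mean in no_Dex. ChiC in Dex lies at 79.4 on average, against 16.2 in no_Dex, and 7 of the 9 cluster members (stars) average 0.863 or less in no_Dex.

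Chitin fragments are sensed by LysM receptors, which pass the signal to a kinase cascade. Of 14 genes of this pathway, all tested, none rose by edgeR, 1 fell and 13 were not called, a share of 7.14% beside 14.4% of all tested genes. With the replicate block 1 rose, beside 1604 of 21344 tested genes. The central receptor CERK1, named for its role after its values were seen, averaged 61.6 ± 10.6 CPM in Dex and 59.1 ± 3.28 CPM in no_Dex (log2 fold change 0.05, SE 0.11). LYK3, a LysM receptor-like kinase, was the gene that fell, to 42.9 ± 2.17 CPM in Dex, against 58.3 ± 1.31 CPM in no_Dex (-0.46, SE 0.05; edgeR adjusted p = 0.00177). The median of the list was 0.04.

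Of 13 genes used as early markers of a chitin or pattern response, 3 rose, none fell and 10 were not called, a share of 23.1% beside 14.4% of all tested genes. Their median log2 fold change was 0.21, beside 0.01 for all tested genes. The list was chosen with earlier results of these data known, so its share and median are a description. With the replicate block 5 rose, beside 1604 of 21344 tested genes. WRKY29 and WRKY22 are transcription factors of pattern-triggered immunity. WRKY29 rose to 28.6 ± 4.89 CPM in Dex, against 17.4 ± 0.666 CPM in no_Dex (0.70, SE 0.11; edgeR adjusted p = 0.00559). WRKY22 rose to 22.4 ± 1.57 CPM in Dex, against 15.2 ± 1.63 CPM in no_Dex (0.54, SE 0.09; edgeR adjusted p = 0.00838). ZAT10, a zinc finger repressor, rose to 32.6 ± 5.73 CPM in Dex, against 15.4 ± 7.08 CPM in no_Dex (1.06, SE 0.28; edgeR adjusted p = 0.0408). The ZAT10 call was lost without Dex replicate 2, no_Dex replicate 2 or no_Dex replicate 3 (0.112, 0.152 and 0.104) and by DESeq2 (0.0514), all adjusted p-values. FRK1, a receptor kinase widely used as such a marker and chosen after its values were seen, was at 78.0, 17.8 and 11.4 CPM in Dex and 12.1, 9.33 and 4.97 CPM in no_Dex, with Dex replicate 1 far above the others, and was not called.

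Of 8 pathogenesis-related proteins and glucanases, 5 were tested, 2 rose, none fell and 3 were not called, a share of 40% beside 14.4% of all tested genes. Their median log2 fold change was 0.01, as printed for all tested genes. PR4, a chitin-binding protein, rose to 495 ± 34.9 CPM in Dex, against 287 ± 32.3 CPM in no_Dex (difference 0.77 in log2, SE 0.09; edgeR adjusted p = 0.00174). The defensin PDF1.2A stood at 0.723 ± 0.181 CPM in Dex and 0.278 ± 0.00572 CPM in no_Dex (1.35, SE 0.31; edgeR adjusted p = 0.0243), from 8 to 24 pairs per library, and its count is uncertain because near-identical defensin genes exist. Its call was lost in the fits without Dex replicate 2 or 3 or any no_Dex replicate (edgeR adjusted p between 0.0745 and 0.0893) and by DESeq2 (0.0619), which left 1 gene called. PDF1.2A passed the filter on low counts only through Dex, where it had 15, 21 and 24 pairs. Its no_Dex libraries held 8 pairs each, under the minimum count of the filter. It was tested because it was high in Dex, so nothing is read from its call or from the share of 40%.

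**Figure D4:**
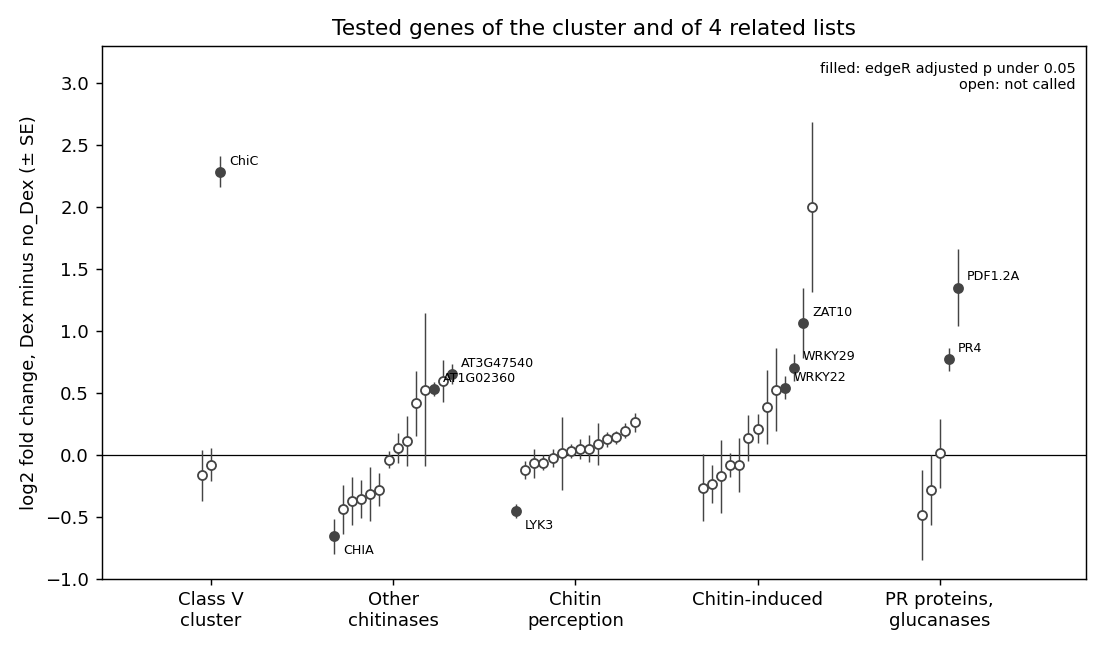
Log2 fold change, Dex minus no_Dex, with SE, of each tested gene in the cluster and in 4 related lists. Filled points passed an edgeR adjusted p of 0.05. ChiC lies at 2.28, and the called genes of the other lists lie between -0.66 and 1.35.

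The genes whose log2 CPM followed that of ChiC most closely over the 6 libraries were RLP22, ARGOS, AT1G27300, AT4G02370 and AT2G20830, with Pearson correlations of 0.998, 0.998, 0.997, 0.997 and 0.997. This is a description over 6 libraries that share the split into 2 groups and their depth, and 578 of 18687 genes compared had a correlation over 0.95. RLP22, a receptor-like protein, was at 19.1, 14.7 and 14.8 CPM in Dex and 4.68, 3.58 and 3.84 CPM in no_Dex. ARGOS, a promoter of organ growth, was at 47.5, 41.4 and 42.5 CPM in Dex and 23.4, 19.1 and 21.4 CPM in no_Dex. Their log2 fold changes were 1.99 and 1.03. Those of AT1G27300, AT4G02370 and AT2G20830 were 0.85, 0.31 and 0.14, the last not called, and all 5 are smaller than that of ChiC.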

How the data were processed

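Libraries were paired-end TruSeq libraries without strand information, per the labels. Per the submitters' processing notes, Bowtie2 was the authors' aligner and TAIR10 their build, with no version stated. What was deposited per gene model is a raw count of read pairs, with a second column that counts single reads, per the file headers. A read with 2 equally good hits was left out, as the file headers state. A further deposited column, of the unit other, holds the model length in bases, per the file headers. Without strand, overlapping antisense transcripts are counted together.

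CPM and levels per kb were computed here from pairs counted. edgeR 4.0.16 in R 4.3.3 filtered genes (filterByExpr, minimum count 10, minimum total 15), scaled by TMM and applied the two-sided quasi-likelihood test with Benjamini-Hochberg adjustment over 21344 genes, calling those under 0.05. The median was 513 pairs per tested gene and library. Each SE is the absolute log2 fold change over the square root of F. The code of the fit was tested on simulated data.

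Positions and sequences are those of TAIR10.1, since the files carry none. Of the 9 models, 5 had the length of a RefSeq transcript and 1 that of its coding sequence, and AT4G19820 was counted over 1101 bases where RefSeq gives a transcript of 2043 bases. Coding sequences were aligned globally with Biopython 1.88, and the signature was located by aligning translations.

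Across genes, libraries with the same number deviated together from their group means (correlations 0.171, 0.119 and 0.125), and other library pairs reached 0.0177 at most. The labels do not say what a number marks, so the pairing used in the replicate block comes from the data. No replicate libraries agreed within sampling noise (chi-square per degree of freedom 3.97 to 26.3).

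Alternatives were edgeR with relative log expression scaling in place of TMM, the DESeq2 1.42.0 Wald test and limma-voom (limma 3.58.1). Further alternatives were other filters, single reads, the replicate block and leaving out each library. Members and lists were chosen with earlier results of these data known, so the counts, shares and medians of all lists are descriptions. Named were all members, called chitinases, up to 4 called genes of other lists, called neighbours and the 5 genes most correlated with ChiC that had a mean log2 CPM of at least 1. CUC2, CTL1, AT2G43620, CERK1, PP2-A2 and FRK1 were named outside this rule.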

Additional observations from a re-analysis of the deposited data

How the results depend on the processing

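The log2 fold change of ChiC stayed between 2.17 (without Dex replicate 1) and 2.37 (without Dex replicate 2) in the 13 alternatives. ChiC was chosen on this contrast and the fits share the same libraries, so its call in each adds no support. Leaving out 1 library moved the genes called higher between 519 and 2339 and those called lower between 785 and 2726, against 1279 and 1792 with all libraries. The lowest counts came without no_Dex replicate 2 and the highest without Dex replicate 1. Other chitinases called lower ranged from 0 to 4 in the same fits, and pathogenesis-related genes called higher from 1 to 2. That last count was also 1 with at least 1 CPM in all 6 libraries and 1 by the DESeq2 Wald test. AT4G19720 ranged from -0.18 to 0.0094 on the log2 scale when 1 library was left out. With the replicate block, which uses the pairing seen in the data, ChiC had 2.28, 1604 genes were higher and 2146 lower, 1 chitin perception gene rose and 5 chitin-induced genes rose, and each gene named in the text as having risen or fallen kept its call. Other counts under the block were 3 other chitinases higher (2 without it), 3 photosynthetic markers lower (2 without it) and 3 root markers lower (1 without it). The cause of these changes was not tested. Depth limits 6 members to a few pairs per library, and they were not tested with the filter used.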
